A study of Mus musculus with 8 samples.

Results

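Of 9 genes that carry iron into, within and out of cells, 7 were higher and 1 was lower in primary mouse vascular smooth muscle cells with Sox6 knockdown than in control cells. Over all tested genes 25.4% were higher and 26% lower. The 9 were taken from a gene count table by their Ensembl identifiers, matched to the mouse symbols Tfrc, Steap3, Slc11a2, Fth1, Ftl1, Ncoa4, Slc40a1, Aco1 and Ireb2, and made up 9 of its 30660 rows. Total RNA was sequenced in 4 libraries of cells with knockdown of Sox6, the gene of a SoxD transcription factor, and in 4 libraries of control cells. The control cells carry the label WT for genotype and for treatment, and the sample names begin with sisox6 and nc. The labels give no strain, age, time after knockdown or silencing agent, and do not tie a library to a culture or an animal of its own, so the spread behind each p-value may be technical.

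Cells take up iron bound to transferrin through the transferrin receptor, reduce it in the endosome and move it into the cytosol. Iron that is not used is stored in ferritin or leaves through ferroportin. When iron is scarce, a pair of iron regulatory proteins binds hairpins in mRNA called iron responsive elements: binding before the coding sequence blocks translation of ferritin and ferroportin, and binding after it protects the receptor mRNA from decay. In mice, hepcidin and ferroportin in arterial smooth muscle have been studied for their part in vessel tone.

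The hairpins are shown because they are the feature through which iron itself is known to act on these mRNAs, and because 4 of the 9 genes carry one that a search could find. The search ran on the mRNA strand of the annotated untranslated regions (GENCODE M21, build mm10), for a C, 5 bases, the loop CAGTGN and 5 bases that pair with the first 5, G with T allowed. In capitals stand the 6 loop bases of each 30-base site.
Fth1, before the coding sequence, chr19:9982732-9982761, plus strand: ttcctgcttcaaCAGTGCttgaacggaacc
Ftl1, before the coding sequence, chr7:45459778-45459807, minus strand: gtcttgcttcaaCAGTGTttgaacggaaca
Slc40a1, before the coding sequence, chr1:45925464-45925493, minus strand: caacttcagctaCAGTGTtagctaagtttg
Tfrc, after the coding sequence, chr16:32631219-32631248, plus strand: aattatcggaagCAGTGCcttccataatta
Tfrc, after the coding sequence, chr16:32631598-32631627, plus strand: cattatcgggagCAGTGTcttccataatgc
Tfrc, after the coding sequence, chr16:32631663-32631692, plus strand: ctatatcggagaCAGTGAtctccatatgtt
Tfrc, after the coding sequence, chr16:32631710-32631739, plus strand: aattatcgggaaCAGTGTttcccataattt
The Fth1 site lay in 4 of 5 annotated coding transcripts, the Ftl1 site in 1 of 2, the Slc40a1 site in 1 of 4 and the Tfrc sites in 1 of 3. The same letters were found in the 5′ untranslated regions of 31 of 20916 annotated genes (0.148%) and in the 3′ untranslated regions of 129 of 21045 (0.613%). Steap3, Slc11a2, Ncoa4, Aco1 and Ireb2 held no match in the windows searched. The search passes over any hairpin with an unpaired base in those 5 pairs, so a gene without a match may still carry one. The deposited values are counts per gene, so transcripts with and without a hairpin cannot be separated.

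Some facts of the libraries touch all results. Sox6 itself had 2, 4, 0 and 0 counts in the knockdown libraries, against 6, 10, 6 and 4 in the controls, too few to pass the filter on low counts. Total counts ran from 37604102 to 49393224 in knockdowns and from 41672921 to 48039788 in controls, and 3 counts, the limit that a count of 0 allows, corresponded to 0.0582 to 0.0766 CPM (counts scaled to TMM-adjusted library size). The smooth muscle marker Tagln had 38 counts over the knockdowns and 20 over the controls. Exons of other genes cover 67.9% of its exon length, and how such reads were counted is not stated, so this level may not be that of its RNA. Smooth muscle markers without such overlap ranged widely in level. Acta2 averaged 949 ± 102 CPM in knockdowns and 1240 ± 136 CPM in controls (SD, n = 4 each). Tpm2 averaged 91.6 CPM in knockdowns and 141 CPM in controls. Myh11 had only 7.28 CPM in knockdowns and 5.9 CPM in controls, and Cnn1 1.92 and 2.23 CPM. Summed over 11 smooth muscle markers, levels were 985 to 1230 CPM in knockdowns and 1290 to 1570 CPM in controls, with 0 of 10 tested higher and 6 lower. Acta2 made up most of these sums. Over 8 endothelial markers the sums were 5.95 to 7.71 CPM in knockdowns and 11.3 to 13.3 CPM in controls, with 1 of 7 tested higher and 6 lower. Over 8 striated muscle markers they were 27.3 to 106 CPM in knockdowns and 287 to 410 CPM in controls, with all 8 lower, and knockdown replicate 4 had the highest knockdown sum. Beside these counts of markers, 25.4% of all tested genes were higher and 26% lower. In bulk RNA, fewer cells of a type and less RNA per cell cannot be told apart, and the part of these markers in the results below was not tested.

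**Figure D1:**
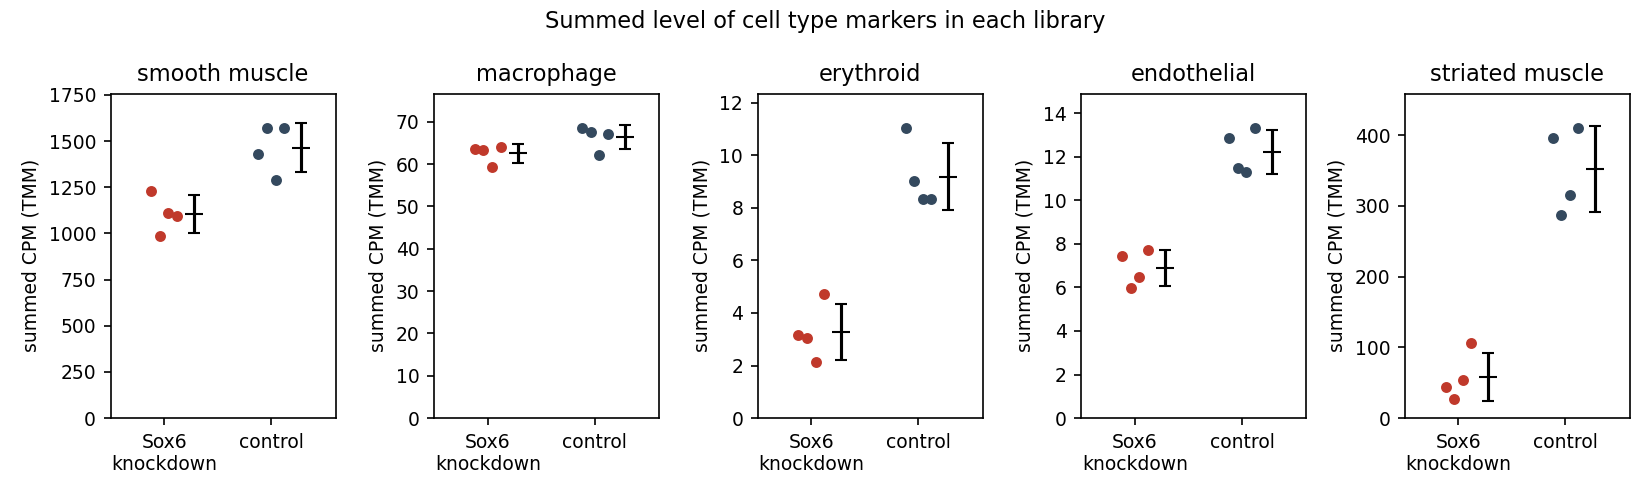
Summed CPM of marker genes of 5 cell types in each library, with Sox6 knockdown left of control; points are libraries and bars are mean and SD (n = 4). Striated muscle sums lay between 27.3 and 106 CPM in knockdowns and between 287 and 410 CPM in controls, while macrophage sums overlapped.

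All 9 genes passed the filter, as did 16150 rows in all. A gene is called higher or lower where the Benjamini-Hochberg adjusted p of edgeR's quasi-likelihood test over those 16150 genes was under 0.05. By that rule 7 of 9 were higher, 1 of 9 was lower and Fth1 was not called, beside 51.5% of all tested genes called in either direction, 25.4% higher and 26% lower. In 6 of 9 the 4 knockdown values lay wholly above the 4 control values and in 0 of 9 wholly below. Groups did not overlap in 46.9% of all tested genes, with knockdowns above in 22.8% and below in 24%. The median log2 fold change, knockdown over control, was 0.31 over the 9 genes and 0.02 over all tested genes, and the median of its size was 0.31 and 0.26. With libraries scaled by total counts, 8 were called higher and 0 lower, and the median of all tested genes moved to 0.12. The 7 called higher here were also called higher under each of the 3 other scalings tried.

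**Figure D2:**
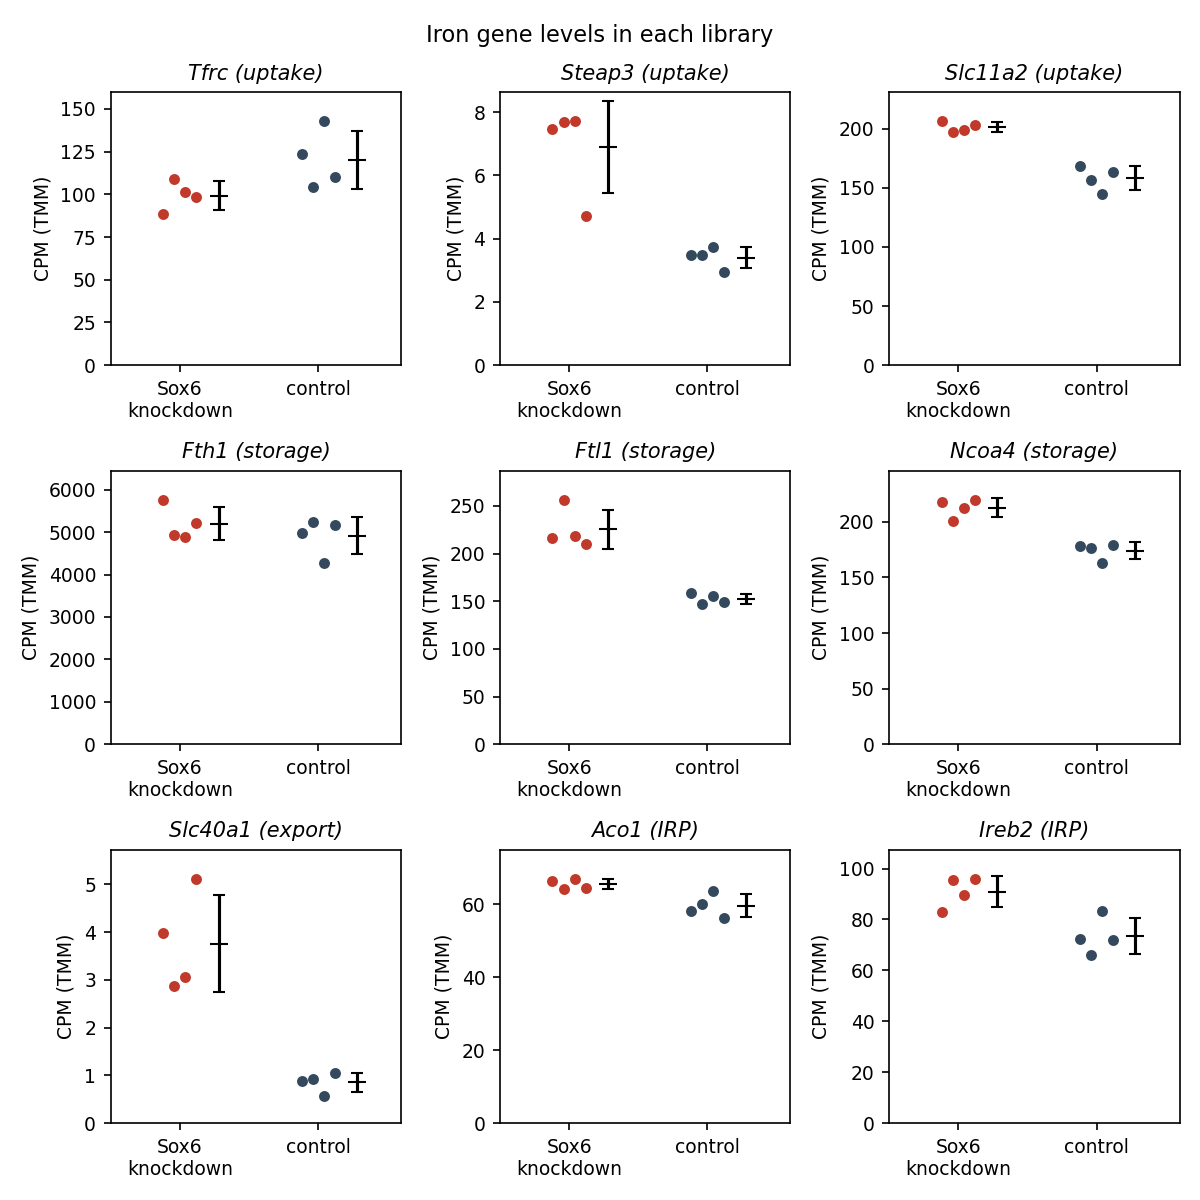
CPM of the 9 iron genes in each library, with Sox6 knockdown left of control in each panel; points are libraries and bars are mean and SD (n = 4). Slc40a1 lay between 2.87 and 5.10 CPM in knockdowns and between 0.575 and 1.05 CPM in controls, whereas Fth1 and Tfrc overlapped.

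Uptake genes moved in opposite directions. Tfrc (ENSMUSG00000022797, mm10 chr16:32608920-32632794, plus strand) encodes the transferrin receptor. It had 88.4, 108.9, 101.4 and 98.5 CPM in the knockdowns, against 123.6, 104.5, 142.8 and 110.2 CPM in the controls. Knockdown replicate 2 lay above control replicate 2, so the groups overlapped, and control replicate 3 was the highest of all. Means were 99.3 ± 8.47 CPM in knockdowns and 120 ± 17.01 CPM in controls (SD, n = 4 each), a log2 fold change of -0.28 ± 0.08 SE (95% interval -0.46 to -0.10; edgeR adjusted p = 0.0133). Scaling by total counts ended this call (-0.18, edgeR adjusted p = 0.116). Red cell precursors express much Tfrc. Of 10 erythroid markers 8 had a row, and their summed level was 2.12 to 4.71 CPM in knockdowns and 8.33 to 11.02 CPM in controls. Of the 7 tested, 0 were higher and 4, all globins, lower, beside 25.4% higher and 26% lower over all tested genes. The other tested markers were not called and differed in direction. Epor had 223 counts over the knockdowns and 146 over the controls, Klf1 42 and 30, and Alas2 71 and 111. The defining erythroid marker Slc4a1 had 2 counts in each group, and the part of erythroid RNA in the Tfrc difference was not tested.

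Steap3 (ENSMUSG00000026389, chr1:120190757-120272705, minus strand) encodes the endosomal reductase that turns ferric into ferrous iron. Its levels were 7.48, 7.68, 7.71 and 4.73 CPM in the knockdowns, against 3.47, 3.47, 3.73 and 2.94 CPM in the controls. The groups did not overlap, and knockdown replicate 4 stood apart from the other 3 knockdowns, closer to the controls. Steap3 rose with a log2 fold change of 1.02 ± 0.15 SE (95% interval 0.69 to 1.34; edgeR adjusted p = 6.1e-05), from 1257 counts over the knockdowns and 593 over the controls. Without knockdown replicate 4 it was 1.16.

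Slc11a2 (ENSMUSG00000023030, chr15:100387898-100425072, minus strand) encodes DMT1, the transporter that passes ferrous iron from the endosome to the cytosol. It had 206, 197, 199 and 203.5 CPM in the knockdowns, against 168, 156, 145 and 163 CPM in the controls. Every knockdown library was above every control library, and the knockdown libraries lay close together. The log2 fold change was 0.35 ± 0.05 SE (95% interval 0.25 to 0.45; edgeR adjusted p = 1.99e-05). Exons of Gm5475, on the other strand, cover 6.33% of its exon length, and whether reads were counted by strand is not stated.

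Among the storage genes, the light ferritin chain rose while the heavy chain was not called. Fth1 (ENSMUSG00000024661, chr19:9980598-9985098, plus strand) encodes the heavy chain, which oxidises iron as it enters the ferritin shell. It had 5753, 4939, 4894 and 5222 CPM in the knockdowns, against 4979, 5244, 4275 and 5179 CPM in the controls. Only knockdown replicate 1 lay above all controls and only control replicate 3 lay below all knockdowns. Means were 5202 ± 395 CPM in knockdowns and 4919 ± 444 CPM in controls (SD, n = 4 each), and the log2 fold change was 0.08 ± 0.07 SE (95% interval -0.06 to 0.22; edgeR adjusted p = 0.336). Without control replicate 3 it was 0.02, and without knockdown replicate 1 it was 0.03. Scaled by total counts Fth1 was called higher (0.18, edgeR adjusted p = 0.0210).

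Ftl1 (ENSMUSG00000050708, chr7:45457944-45459884, minus strand) encodes the light chain, which helps iron to form a mineral core. Its levels were 216.5, 256, 218 and 210.5 CPM in the knockdowns, against 158, 147, 155 and 149.5 CPM in the controls. The groups were well apart, with knockdown replicate 2 the highest. Ftl1 rose by a log2 fold change of 0.56 ± 0.06 SE (95% interval 0.44 to 0.69; edgeR adjusted p = 1.41e-06), the smallest adjusted p among the 9. Its level is uncertain, because 44.7% of the 100-base stretches of its transcripts also occur in transcripts of other genes. Exons of other genes, among them Gm10252 on the other strand, cover 34.6% of its exon length. The rows of 8 copies elsewhere in the genome held 1.37% to 2.25% of the counts summed with Ftl1. One of them, Ftl1-ps1, had 146, 176, 159 and 107 counts in knockdowns and 74, 81, 110 and 78 in controls, a log2 fold change of 0.72 (edgeR adjusted p = 0.00479).

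Ncoa4 (ENSMUSG00000056234, chr14:32159865-32179855, plus strand) encodes the receptor that delivers ferritin to lysosomes, where its iron is released. It had 218, 201, 213 and 219 CPM in the knockdowns, against 178, 176, 163 and 179.5 CPM in the controls. No knockdown library was as low as any control, and the log2 fold change was 0.29 ± 0.04 SE (95% interval 0.20 to 0.38; edgeR adjusted p = 7.15e-05). The processed pseudogene Gm6768 aligns to it over 1878 bases at 99.89% identity and took 19.8 ± 0.427% of the counts summed over both rows in knockdowns and 21 ± 0.42% in controls (SD, n = 4 each). With both rows summed, a choice made after the data were seen, the log2 fold change was 0.27 (edgeR adjusted p = 9.33e-05).

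The exporter had the largest fold change of the 9 genes. Slc40a1 (ENSMUSG00000025993, chr1:45908068-45926523, minus strand) encodes ferroportin, the known exporter of cellular iron. It had 3.99, 2.87, 3.06 and 5.10 CPM in the knockdowns, against 0.891, 0.914, 0.575 and 1.05 CPM in the controls. The lowest knockdown library was above the highest control library, and knockdown replicate 4 was the highest. Counts were 176, 148, 120 and 247 in knockdowns and 38, 40, 27 and 42 in controls, so the control levels rest on few reads. Slc40a1 rose with a log2 fold change of 2.14 ± 0.23 SE (95% interval 1.65 to 2.62; edgeR adjusted p = 2.37e-06), a ratio of mean CPM of 4.38.

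Macrophages express much ferroportin, so their markers are given beside this result. Of 12 markers 11 had a row, and their summed level was 59.3 to 64.1 CPM in knockdowns and 62.2 to 68.5 CPM in controls. Of the 4 tested, 1 was higher and 1, Cd14, lower, beside 25.4% higher and 26% lower over all tested genes. Cd68, the one that was higher, averaged 3.01 ± 0.412 CPM in knockdowns and 1.66 ± 0.405 CPM in controls (SD, n = 4 each). Of the defining markers, Vsig4 had 0 counts in all libraries, Adgre1 had 4 over the knockdowns and 4 over the controls, and Cd163 had 44 over the knockdowns and 10 over the controls. Csf1r, Cd14 and Lyz2 had 5496, 4707 and 626 counts over the knockdowns, against 5563, 5070 and 501 over the controls. The part of macrophage RNA in the Slc40a1 difference was not tested.

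The mRNAs of both iron regulatory proteins were modestly higher, and protein was not measured here. Aco1 (ENSMUSG00000028405, chr4:40143081-40198338, plus strand) encodes IRP1, which acts as cytosolic aconitase when it holds an iron-sulfur cluster. It had 66.5, 64.3, 66.9 and 64.6 CPM in the knockdowns, against 58.3, 60.2, 63.7 and 56.4 CPM in the controls. The groups did not overlap, but control replicate 3 came within 1 CPM of the lowest knockdown. The log2 fold change was 0.14 ± 0.05 SE (95% interval 0.04 to 0.23; edgeR adjusted p = 0.0214). The call was lost without knockdown replicate 3 (0.13, edgeR adjusted p = 0.0563), without control replicate 1 (0.12, edgeR adjusted p = 0.0682) and without control replicate 4 (0.11, edgeR adjusted p = 0.0894).

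Ireb2 (ENSMUSG00000032293, chr9:54863789-54912530, plus strand) encodes IRP2, which is degraded when iron is plentiful. Its levels were 82.9, 95.4, 89.4 and 95.8 CPM in the knockdowns, against 72.5, 66.2, 83.3 and 72.1 CPM in the controls. Control replicate 3 was just above knockdown replicate 1, and otherwise the knockdowns were higher. The log2 fold change was 0.31 ± 0.07 SE (95% interval 0.16 to 0.45; edgeR adjusted p = 0.00132).

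**Figure D3:**
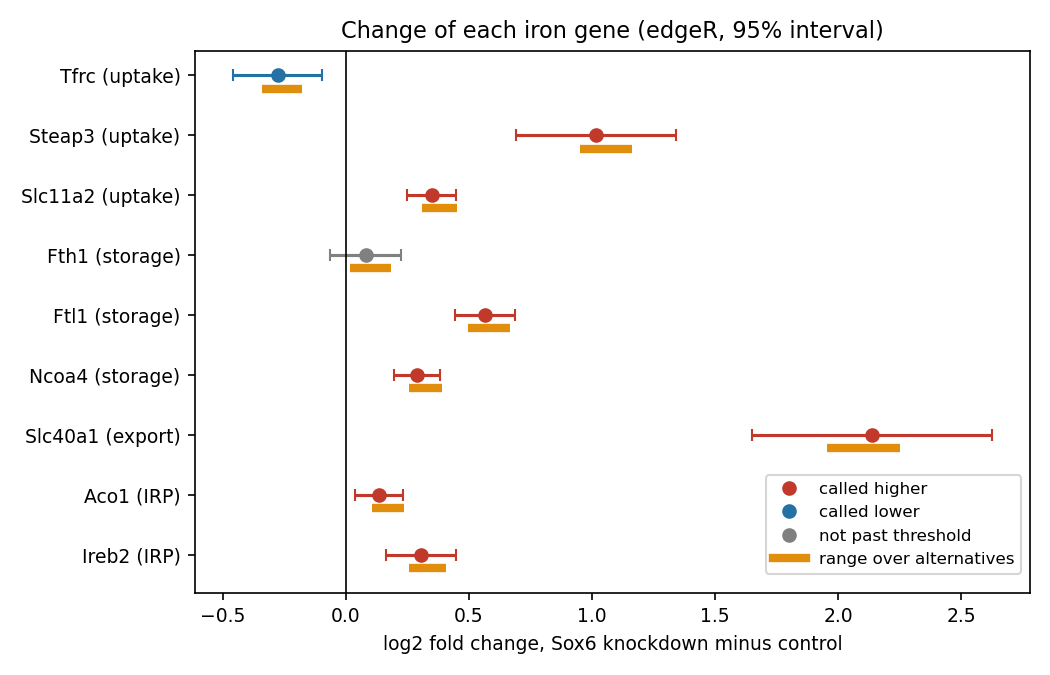
Log2 fold change of the 9 iron genes, Sox6 knockdown over control, with 95% intervals from the edgeR fit; orange bars span the values under all alternatives run. The intervals of Slc40a1 (1.65 to 2.62) and Steap3 (0.69 to 1.34) lie farthest from 0, that of Tfrc lies below 0 and that of Fth1 spans it.

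Levels of the 9 genes differed widely once divided by exon length. That length merges the exons of all annotated transcripts of a gene and can exceed that of the mRNA present, so genes compare only roughly. Fth1 stood first, at 1500 CPM per kilobase in knockdowns and 1418 in controls, followed by Ftl1 at 168 CPM per kilobase in knockdowns and 114 in controls. Slc11a2 followed at 31.7 CPM per kilobase in knockdowns and 24.9 in controls, and Ncoa4 stood at 22.7 CPM per kilobase in knockdowns and 18.6 in controls. Tfrc, Aco1 and Ireb2 came lower in knockdowns, at 16.05, 14.6 and 9.59 CPM per kilobase. In controls Tfrc, Aco1 and Ireb2 had 19.45, 13.3 and 7.75 CPM per kilobase. The lowest levels were those of Steap3, at 1.21 CPM per kilobase in knockdowns and 0.596 in controls, and of Slc40a1, at 0.418 CPM per kilobase in knockdowns and 0.0952 in controls. By this measure Tfrc was below Ncoa4 in knockdowns and above it in controls. Its values overlapped those of Aco1 in knockdowns and those of Ncoa4 and Slc11a2 in controls.

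Ratios of counts within a library do not depend on how libraries are scaled, and 4 of them were compared by permuting the group labels exactly (two-sided, 70 assignments), with adjustment over the 4. The smallest p that 4 against 4 libraries can give is 0.0286. Tfrc to Slc40a1, uptake against export, was 22.2, 37.9, 33.1 and 19.3 in the knockdowns, against 139, 114, 248 and 105 in the controls. The groups were far apart, control replicate 3 being the highest, with a log2 difference of -2.40 (exact permutation p = 0.0286, adjusted p = 0.0571).

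Fth1 to Ftl1, heavy against light ferritin chain, was 26.6, 19.3, 22.4 and 24.8 in the knockdowns, against 31.4, 35.8, 27.5 and 34.65 in the controls. Knockdown replicate 1 came close to control replicate 3 without reaching it, and the log2 difference was -0.48 (exact permutation p = 0.0286, adjusted p = 0.0571). Tfrc to Fth1 averaged 0.0192 ± 0.00290 in knockdowns and 0.0249 ± 0.00606 in controls (SD, n = 4 each) and overlapped between groups (log2 difference -0.35, exact permutation p = 0.143, adjusted p = 0.143). Ireb2 to Aco1 averaged 1.39 ± 0.117 in knockdowns and 1.23 ± 0.0928 in controls (SD, n = 4 each) and also overlapped (0.17, exact permutation p = 0.114, adjusted p = 0.143). No ratio passed 0.05 after adjustment over all 8 libraries. Without knockdown replicate 1, Tfrc to Slc40a1 (-2.30), Fth1 to Ftl1 (-0.55) and Ireb2 to Aco1 (0.22) each did (exact permutation, adjusted p = 0.0381), because 3 of the 4 unadjusted p-values were then at the smallest value possible. Under the other 7 omissions of 1 library, adjusted p-values ran from 0.0571 to 0.314.

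**Figure D4:**
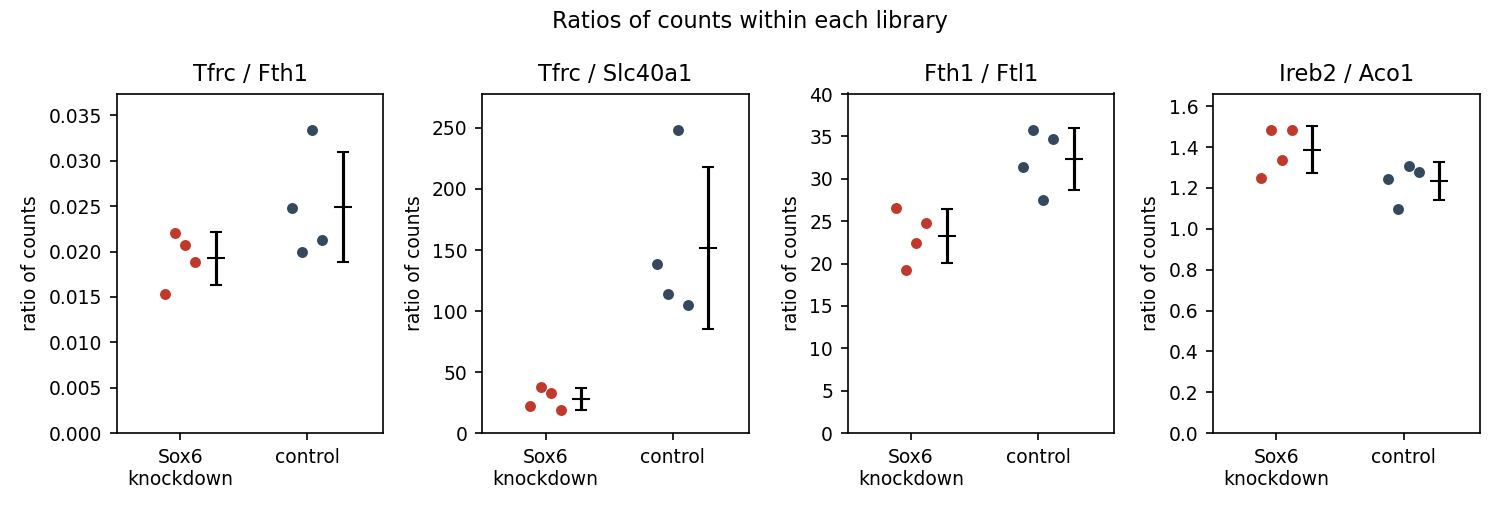
Ratio of the counts of a pair of iron genes in each library, Sox6 knockdown left of control; points are libraries and bars are mean and SD (n = 4). Tfrc to Slc40a1 ran from 19.3 to 37.9 in knockdowns and from 105 to 248 in controls, while Tfrc to Fth1 overlapped.

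The genes whose log2 CPM over the 8 libraries, centred on each gene's mean, lay nearest to those of Tfrc were Nucks1, Naa50 and Atp23, at root mean square distances of 0.0264, 0.0314 and 0.0394 log2 units. Because they were picked by nearness over the same 8 libraries, fold changes close to that of Tfrc follow from the choice. Their log2 fold changes were -0.27, -0.26 and -0.29, all called lower (edgeR adjusted p = 0.0105, 0.0164 and 0.0433). Nearest to Slc40a1 were Cd74, Ccser1 and Vnn1, at distances of 0.189, 0.191 and 0.204 log2 units. They were picked in the same way, so their higher level in knockdowns also follows from the choice. Vnn1, which encodes a pantetheinase, averaged 293 CPM in knockdowns and 89.7 CPM in controls. Cd74, the invariant chain of antigen presentation, averaged 11.8 CPM in knockdowns and 3.79 CPM in controls.

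Around the 9 genes, 83 others of iron handling were grouped in 8 lists by role. Of the 80 that were tested, 24 were higher, 22 lower and 34 not called, with a median log2 fold change of 0.01. Over all tested genes 25.4% were higher and 26% lower, so the lists as a whole were near that background. Directions below are those of TMM scaling. Scaled by total counts, 38 were higher and 14 lower.

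Of 11 other uptake genes, 7 were lower, 2 higher and 2 not called, with a median log2 fold change of -0.45. Scara5, a ferritin receptor, averaged 2.10 ± 0.241 CPM in knockdowns and 7.47 ± 0.581 CPM in controls (SD, n = 4 each; log2 fold change -1.82 ± 0.12 SE, edgeR adjusted p = 1.45e-08). Steap2, a metalloreductase related to Steap3, averaged 109 ± 6.52 CPM in knockdowns and 172 ± 4.46 CPM in controls (-0.66, edgeR adjusted p = 3.94e-08). Slc39a14, a carrier of iron not bound to transferrin, averaged 88.0 ± 5.03 CPM in knockdowns and 124.6 ± 8.56 CPM in controls (-0.50, edgeR adjusted p = 3.33e-06). These 3 had the lowest p of the called genes in the list, which favours groups that do not overlap. In each of them every knockdown library was below every control library, the opposite of Steap3 and Slc11a2, beside 24% of all tested genes wholly below. Slc22a17, a receptor for lipocalin 2, went the other way, at 8.90 ± 1.61 CPM in knockdowns and 4.01 ± 0.439 CPM in controls (SD, n = 4 each; 1.15, edgeR adjusted p = 4.7e-06). Lcn2, the gene of lipocalin 2 itself, was lower, at 1084 CPM in knockdowns and 1608 CPM in controls (-0.57, edgeR adjusted p = 1.47e-05).

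Of 10 genes that move the receptor through the cell, 3 were higher, 4 lower and 3 not called. Mcoln1, an endolysosomal cation channel that can pass iron, was at 47.2 ± 1.21 CPM in knockdowns and 31.9 ± 2.31 CPM in controls (SD, n = 4 each; log2 fold change 0.57, edgeR adjusted p = 9.94e-07). Vps35, of the retromer that recycles cargo, was higher (0.25, edgeR adjusted p = 0.000726). The clathrin heavy chain Cltc was lower (-0.18, edgeR adjusted p = 0.00297), a call that scaling by total counts ended (-0.08, edgeR adjusted p = 0.168).

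Of 5 tested genes of ferritin loading and turnover, 1 was higher, 2 were lower and 2 not called. Pcbp1, a chaperone that brings iron to ferritin, was at 380.5 ± 25.8 CPM in knockdowns and 453 ± 7.79 CPM in controls (SD, n = 4 each; -0.25, edgeR adjusted p = 0.000428). Tax1bp1, an autophagy receptor that binds Ncoa4, was lower (-0.19, edgeR adjusted p = 0.00229), though not with libraries scaled by total counts (edgeR adjusted p = 0.129). Rb1cc1, of the complex that starts autophagosomes, was higher (0.21, edgeR adjusted p = 0.00192).

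Of 8 tested genes of export and the hepcidin axis, 3 were higher, 3 lower and 2 not called. Hephl1, a copper oxidase related to hephaestin, averaged 0.635 ± 0.169 CPM in knockdowns and 2.06 ± 0.510 CPM in controls (SD, n = 4 each; -1.70 ± 0.25 SE, edgeR adjusted p = 5.16e-05). Flvcr1, first described as a heme exporter, was higher (0.45, edgeR adjusted p = 0.000110), with 15.6% of its exon length shared with other genes. Neo1, a co-receptor that binds hemojuvelin, was higher by a small amount (0.15, edgeR adjusted p = 0.00286). Hepcidin itself (Hamp) had 2 counts over the knockdowns and 0 over the controls and was not tested.

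Of 11 genes that control the iron regulatory proteins or the decay of Tfrc mRNA, 2 were higher, 1 lower and 8 not called. Fbxl5, the iron-sensing adaptor for IRP2 degradation, was among those not called (log2 fold change 0.025, edgeR adjusted p = 0.680). Mms19, of the cytosolic iron-sulfur assembly machinery, was higher, at 108 ± 2.91 CPM in knockdowns and 88.9 ± 2.25 CPM in controls (SD, n = 4 each; 0.29, edgeR adjusted p = 2.88e-05). Skp1a, a ubiquitin ligase subunit, was higher (0.15, edgeR adjusted p = 0.0120). Its partner Cul1 was lower (-0.10, edgeR adjusted p = 0.0393), a call that held in 8 of 17 alternatives. It was lost with total count scaling, where the direction did not hold (0.0030, edgeR adjusted p = 0.953), with upper quartile scaling (edgeR adjusted p = 0.194), without the filter (0.0936) and with the replicate block (0.0685). It was also lost without knockdown replicates 1, 2 or 3 or control replicates 3 or 4, left out singly (edgeR adjusted p = 0.0586 to 0.122).

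Of 5 further mRNAs reported to carry an iron responsive element, 0 were higher and 2 were lower. Epas1, the hypoxia-inducible factor HIF-2 alpha, averaged 10.8 ± 1.08 CPM in knockdowns and 14.3 ± 1.55 CPM in controls (SD, n = 4 each; -0.40, edgeR adjusted p = 0.00211). Cdc42bpa, a kinase that acts on the cytoskeleton, averaged 141 ± 4.47 CPM in knockdowns and 196 ± 4.51 CPM in controls (-0.47, edgeR adjusted p = 1.75e-07). By the search described for the 9 genes, Alas2, the erythroid enzyme that starts heme synthesis, held a match before the coding sequence, and it was not called (edgeR adjusted p = 0.0894).

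Of 13 genes of heme synthesis, transport and breakdown, 9 were higher, 0 lower and 4 not called, with a median log2 fold change of 0.29, beside 25.4% higher and 26% lower over all tested genes. Hmox1, the inducible heme oxygenase that frees iron from heme, averaged 119 ± 6.46 CPM in knockdowns and 84.1 ± 4.23 CPM in controls (SD, n = 4 each; 0.51, edgeR adjusted p = 1.20e-06). Blvrb, a biliverdin reductase, averaged 49.7 ± 5.37 CPM in knockdowns and 30.1 ± 1.75 CPM in controls (0.72, edgeR adjusted p = 1.14e-06). Alas1, which catalyses the rate-limiting step of heme synthesis, averaged 65.5 ± 5.25 CPM in knockdowns and 50.9 ± 1.34 CPM in controls (0.36, edgeR adjusted p = 6.89e-05). Ppox, an enzyme late in the same pathway, was higher too (0.52, edgeR adjusted p = 6.62e-06), with 17.5% of its exon length shared with other genes. All knockdown libraries were above all controls in 9 of the 13 genes, the same 9, and in 22.8% of all tested genes.

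Of 17 genes of mitochondrial iron and iron-sulfur clusters, 4 were higher, 3 lower and 10 not called. Slc25a28, a mitochondrial iron importer, was at 32.9 ± 1.34 CPM in knockdowns and 42.3 ± 0.409 CPM in controls (SD, n = 4 each; log2 fold change -0.36, edgeR adjusted p = 1.44e-05). Hscb, a cochaperone of cluster transfer, was higher (0.41, edgeR adjusted p = 0.000160).

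**Figure D5:**
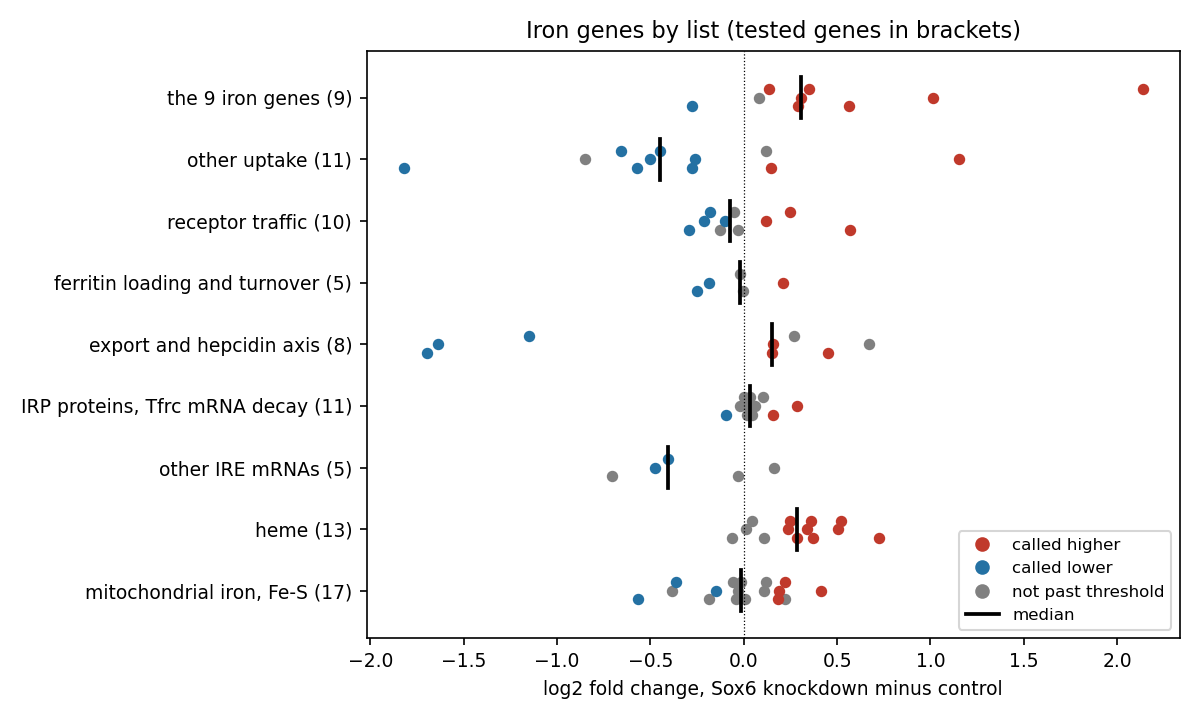
Log2 fold change, Sox6 knockdown over control, of each tested gene in 8 lists of iron handling and of the 9 iron genes. Points are genes, colours give the call and black bars the medians. Of the tested heme genes 9 of 13 were higher and 0 lower, and of the other uptake genes 2 of 11 were higher and 7 lower.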

How the data were processed

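The deposited values are whole-number counts of reads per gene, which the authors did not normalize. The labels' protocols name TRIzol extraction and a NEBNext Ultra library kit, and the submitters' processing notes name build mm10 and DESeq2. For the aligner, the counter and its strand mode, details were not given in the sources used here. Between 72.0% and 74.2% of counts from 1 to 40 were even, so halved counts were tried. Symbols, positions and iron responsive elements came from GENCODE M21 (mm10), which named 30008 of 30660 identifiers.

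Knockdown was compared with control in R 4.3.3 with edgeR 4.0.16 (filterByExpr, minimum count 10, TMM, quasi-likelihood test, all 8 libraries, no covariate). CPM are on TMM-scaled library sizes, and values are mean ± SD. The 95% intervals come from the edgeR fit, and the limit for a count of 0 (3 counts) covers counting error only. The test was first tested on simulated data.

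The members and gene lists were chosen with earlier results of these data known. Named genes are the 9 members, Sox6, in each list the called genes with the lowest p (at most 3), the 3 genes nearest to Tfrc and to Slc40a1 (mean log2 CPM 1 or more), and genes whose copies or overlaps touch a member. For 1 gene that the rule takes, values are not reported here. Fbxl5, Hamp, Slc22a17, Lcn2, Alas1 and Alas2 were named beside these after their values were seen. Likeness used a prior of 0.5 CPM. Copies were transcripts of other genes aligned over at least 200 bases at 90% identity or more. Alternatives were scaling by total counts, by the upper quartile or by DESeq2 size factors, a filter of 1 CPM in 4 libraries or none, DESeq2 1.42.0, limma-voom (limma 3.58.1), the replicate number as a block, ferritin copies added and each library left out. Ftmt and 3 of the cell type markers were not analysed here.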

Additional observations from a re-analysis of the deposited data

Results flagged for a closer look

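For the 9 iron genes, the list genes taken by the naming rule and the 4 ratios, 72 groups of 4 libraries were checked. Of these, 6 held a library whose gap to the nearest of the others was over Dixon's 95% limit, as a share of the group's range. By chance about 1 group in 20 is over it. Steap3 had 4.73 CPM in knockdown replicate 4, against 7.48 to 7.71 CPM in the other 3 knockdowns. Pcbp1 had 419 CPM in knockdown replicate 1, against 362 to 371 CPM in the other 3 knockdowns. Neo1 had 266 CPM in knockdown replicate 1, against 257 to 258 CPM in the other 3. Mms19 had 113 CPM in knockdown replicate 4, against 106.6 to 107.4 CPM in the other 3 knockdowns, and 85.5 CPM in control replicate 3, against 89.7 to 90.3 CPM in the other 3 controls. Hmox1 had 109.6 CPM in knockdown replicate 4, against 122 to 123 CPM in the other 3 knockdowns. Knockdown replicate 4 accounts for 3 of the 6, and also had the highest Slc40a1 level (5.10 CPM) and the highest sum of striated muscle markers (106 CPM) among the knockdowns. What sets it apart was not tested.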

How the results depend on the processing

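Under total count scaling, which moved the median of all tested genes to 0.12 on the log2 scale, 8 of the 9 iron genes were called higher and 0 lower, and 38 list genes were higher and 14 lower. Tfrc was then at -0.18 (edgeR adjusted p = 0.116), Fth1 at 0.18 (0.0210) and Cul1 at 0.0030 (0.953), the only direction that turned among the 9 iron genes and the list genes taken by the naming rule (other named genes were not run). With 1 library left out, 6 to 7 iron genes were higher and 1 lower, and 22 to 26 list genes higher and 19 to 22 lower. Over the same omissions Aco1 ran from 0.11 to 0.17, Tfrc from -0.34 to -0.19, Fth1 from 0.02 to 0.11, Slc40a1 from 1.95 to 2.25 and Steap3 from 0.95 to 1.16. The log2 ratio differences ran from -0.45 to -0.20 for Tfrc to Fth1, from -2.56 to -2.13 for Tfrc to Slc40a1, from -0.55 to -0.39 for Fth1 to Ftl1 and from 0.12 to 0.22 for Ireb2 to Aco1. With the replicate number as a block, 7 iron genes were higher and 1 lower, Tfrc was at -0.27, and 25 list genes were higher and 21 lower; deviations of same-numbered libraries correlated at only -0.07 to 0.07, so the numbers were not taken to pair them, and no iron gene's call changed. With 4 pairs the smallest unadjusted p for a ratio is 0.125. Depth limits genes of few counts, such as Slc40a1 with 27 to 42 per control library and Sox6 with 0 to 10. The cause of each change was not tested.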
